A study of Mus musculus with 6 samples.

Results

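RNA-seq counts of 10 genes of bone morphogenetic protein (BMP) signaling were compared between tumor-initiating cells (TICs) and other tumor cells of the mouse mammary gland. They are the ligands Bmp2, Bmp4 and Bmp7, the receptors Bmpr1a and Bmpr2, the secreted antagonist Grem1, and Id1, Id2, Id3 and Id4, a family of target genes. Members were taken by their symbols, and each of the 10 symbols matched 1 of the 41388 Ensembl genes in the count data. Of the 10, 9 passed the filter on low counts and Grem1 did not.

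The tumors came from 12-week-old female mice, by the study's text, of the MMTV-PyMT strain FVB/N-TgN(MMTVPyVT)634Mul/J, in which the mouse mammary tumor virus promoter drives the polyoma middle T antigen in mammary epithelium. TICs were sorted as CD24+CD90+CD45- cells, and the controls were tumor cells outside the CD24+CD90+ gate, named non-CD24+CD90+ tumor cells here. The description of the series instead calls the controls negative for both CD24 and CD90. Each group had 3 libraries, each made from 120 ng of RNA of a pool of 4 cell sorts of different mice, and the replicate numbers only follow the order of the samples.

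BMPs are secreted ligands of the TGF-beta superfamily that bind complexes of type I receptors, such as BMPR1A, and type II receptors, such as BMPR2. The active type I receptor phosphorylates SMAD1, SMAD5 and SMAD9, which enter the nucleus with SMAD4 and switch on target genes, among which the ID genes respond rapidly. ID proteins carry a helix-loop-helix domain without a basic DNA-binding region, so that they pair with E proteins such as those encoded by Tcf3, Tcf4 and Tcf12 and keep them off DNA. In the mammary gland, ID proteins are best known for their part in the growth and differentiation of the epithelium, and Id1 and Id3 also act in tumor endothelium.

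Total counts ranged from 6781239 to 8450038 in the control libraries and from 8114933 to 9100552 in the TIC libraries. Values below are counts normalized by TMM to a total of 1000000 per library (CPM), and 3 counts were worth 0.33 to 0.44 CPM. Thy1, which encodes CD90, was at 75.9, 56.7 and 21.6 CPM in controls and 90.7, 207 and 70.3 CPM in TICs, and its log2 fold change of 1.25 ± 0.50 (SE) did not pass the test (edgeR exactTest, adjusted p = 0.35). Cd24a was at 402, 405 and 602 CPM in controls and 440, 315 and 356 CPM in TICs, and the groups overlapped in CPM for both sorting markers. Ptprc, which encodes CD45, had 33 counts in control replicate 1 and 0 in the other 5 libraries. Summed levels of 8 luminal epithelial markers were 5929 to 6289 CPM in controls and 3910 to 4618 CPM in TICs, and those of 8 fibroblast markers were 2791 to 3180 CPM in controls and 7466 to 10826 CPM in TICs. These shifts in luminal epithelial and fibroblast markers accompany every comparison below, and their part in the results was not tested. The study lists several collagens, higher in TICs, in its case for an epithelial-to-mesenchymal transition of these cells. In RNA of bulk libraries, fewer cells of a type and less RNA per cell cannot be told apart.

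No member passed the test between TICs and controls at an adjusted p of 0.1 (edgeR exactTest, Benjamini-Hochberg over 12192 genes), 0 of 9 against 1.55% of all genes tested. The quasi-likelihood test of edgeR also called 0 of 9, and DESeq2 called 0 of the 8 members and 2.58% of all genes to which it gave an adjusted p, which left out Bmp2. Id1 and Id2 were the 2 members with an unadjusted exactTest p under 0.05 (22.2%, against 7.85% of all genes tested), with fold changes of opposite sign. Of the 9 members, 3 had a positive log2 fold change and the median was -0.66, whereas 49.7% of all genes tested had a positive one and their median was -0.01. Genes called higher in TICs were 1.36% of all genes and genes called lower were 0.189%. All 3 TIC libraries lay below all 3 controls for 2 of 9 members, Id2 and Id4, compared with 7.55% of all genes. For 0 of 9 members did all TIC libraries lie above the controls, compared with 7.69% of all genes. The smallest two-sided p that an exact permutation test over 3 and 3 libraries allows is 0.1.

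**Figure D1:**
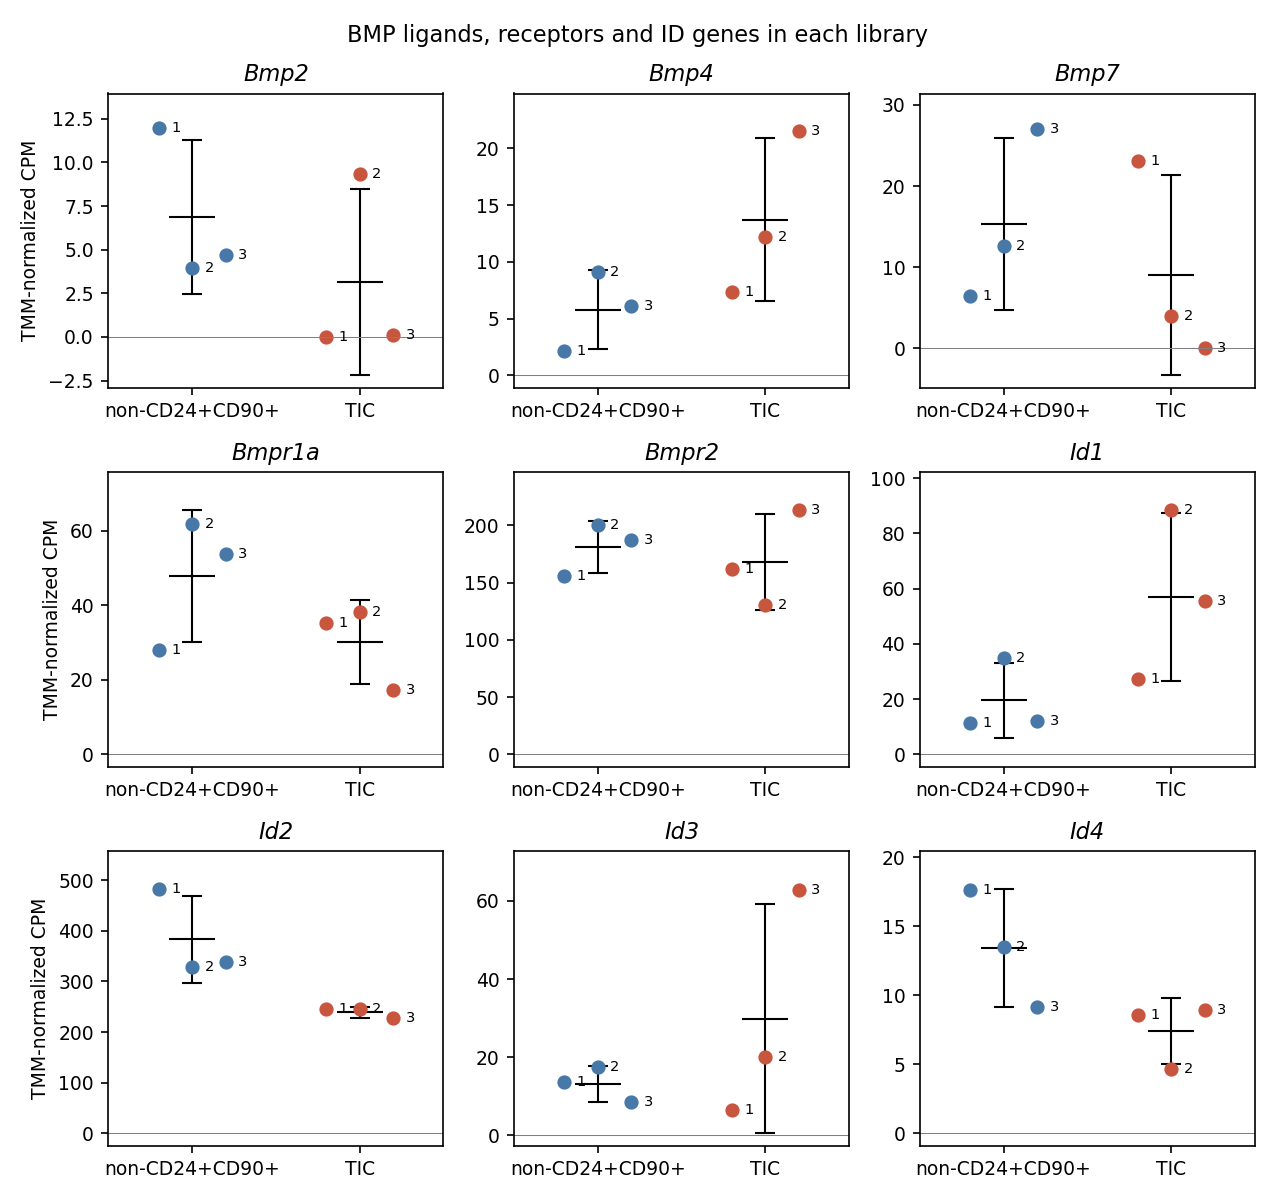
TMM-normalized CPM (vertical axes) of the 9 tested members in each library of non-CD24+CD90+ tumor cells (blue) and TICs (red), with replicate numbers beside the points; horizontal bars are means and whiskers 1 SD (n = 3), which reach below 0 where the spread exceeds the mean. For Id2 the 3 TIC libraries sit between 227 and 246 CPM, below all 3 controls, whereas for Id1 TIC replicate 1 lies below control replicate 2.

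Promoter sequences from RefSeq (GRCm38.p6) were held for 7 of the 10 members, Bmp4, Bmpr1a, Bmpr2, Grem1, Id2, Id3 and Id4, and the others are Bmp2, Bmp7 and Id1. The 250 bases before each start were searched on both strands for GGCGCC, a GC-rich element to which BMP SMADs bind, and for CAGAC, the core of the SMAD-binding element. These motifs do not overlap each other. GGCGCC occurred once each in Bmpr1a, Bmpr2, Grem1, Id2 and Id4, and in 9.59% of all 32851 promoter windows of that length. CAGAC occurred in Grem1 and Id3, and in 42.2% of all windows. Id2 and Id4 are shown because their levels separated the groups, and Grem1 because it held both motifs and had no counts. Sequences read 5′ to 3′ towards the RefSeq start, and capitals mark the motifs. Bases that lie in annotated exons were searched but left out of the sequences shown. This shortened Id2 to the 89 bases farthest from the start, without the 161 bases next to it. The Id2 stretch shown lies within the annotated gene.
Id2 (chr12:25096254-25096342, minus strand): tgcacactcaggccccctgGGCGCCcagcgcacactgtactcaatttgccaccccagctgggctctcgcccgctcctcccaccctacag
Id4 (chr13:48260866-48261115, plus strand): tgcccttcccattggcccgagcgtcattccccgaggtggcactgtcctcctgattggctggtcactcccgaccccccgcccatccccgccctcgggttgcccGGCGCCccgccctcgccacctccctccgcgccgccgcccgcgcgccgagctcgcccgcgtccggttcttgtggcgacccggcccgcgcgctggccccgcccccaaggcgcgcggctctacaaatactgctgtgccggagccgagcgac
Grem1 (chr2:113758649-113758898, minus strand): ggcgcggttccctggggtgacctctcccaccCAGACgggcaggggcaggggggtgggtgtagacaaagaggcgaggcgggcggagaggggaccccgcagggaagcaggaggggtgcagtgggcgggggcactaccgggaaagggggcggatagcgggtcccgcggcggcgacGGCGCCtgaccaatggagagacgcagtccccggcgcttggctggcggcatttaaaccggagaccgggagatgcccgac

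The GGCGCC match began 231 bases before the RefSeq start of Id2, 148 bases before that of Id4 and 78 bases before that of Grem1, in which CAGAC began 219 bases before the start. The Id3 window held CAGAC 167 bases and its reverse complement GTCTG 68 bases before the start. All 250 bases of the Id3 and Bmpr2 windows lay in annotated exons of the same gene, and so did the matches in them. These matches are of letters only, since binding of SMADs was not measured.

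The ligands were low and uneven between libraries of the same group. Bmp2, a ligand best known for bone formation and heart development, lies on GRCm38 chromosome 2 at 133552159 to 133562885. It had 82, 35 and 33 counts in control replicates 1 to 3, which is 11.97, 3.97 and 4.72 CPM. In TIC replicates 1 to 3 it had 0, 80 and 1 counts, or 0, 9.33 and 0.13 CPM. TIC replicate 2 thus lay within the range of the controls while the other TIC libraries were at or next to 0, and the groups overlapped. The means were 6.89 ± 4.42 CPM in controls and 3.15 ± 5.35 CPM in TICs (SD, n = 3), with a log2 fold change of -1.12 ± 1.84 (SE, edgeR exactTest, adjusted p = 1). Leaving out TIC replicate 2 moved the log2 fold change to -6.45, with an adjusted p of 0.53.

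Bmp4, which acts in mesoderm and in the budding of epithelial organs, lies on chromosome 14 at 46383520 to 46390669. Its level was 2.19, 9.08 and 6.15 CPM in controls and 7.36, 12.2 and 21.5 CPM in TICs, from 15, 80 and 43 counts and 67, 105 and 163 counts. TIC replicate 3 was the highest library and control replicate 1 the lowest, and TIC replicate 1 lay below control replicate 2. The means of 5.81 ± 3.46 and 13.7 ± 7.18 CPM gave a log2 fold change of 1.23 ± 1.15 (edgeR exactTest, adjusted p = 0.999). Bmp4 was the ligand with a positive fold change, while Bmp2 and Bmp7 had negative ones.

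Bmp7, a ligand required for kidney and eye development, lies on chromosome 2 at 172868012 to 172940321. It measured 6.42, 12.6 and 27.0 CPM in controls and 23.1, 3.96 and 0 CPM in TICs. TIC replicate 1 stood close to the highest control, whereas TIC replicate 3 had no count. The log2 fold change was -0.77 ± 1.37 (edgeR exactTest, adjusted p = 1) and ranged from -2.92 without TIC replicate 1 to -0.08 without control replicate 3. Libraries at 0 or 1 count were common at such levels, since 49.2% of the 3171 genes with a mean of 4 to 14 CPM had at least 1 such library and 16% had 2 or more.

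Both receptors were expressed more evenly than the ligands. Bmpr2, the type II receptor, lies on chromosome 1 at 59763400 to 59879014. Its level was 156, 201 and 187 CPM in controls and 162, 130 and 213 CPM in TICs. The highest and the lowest library were both TICs, so that the groups overlapped throughout. The means were 181 ± 23.0 and 168 ± 41.9 CPM, and the log2 fold change of -0.11 ± 0.31 had a 95% interval from -0.72 to 0.51 (edgeR exactTest, adjusted p = 1). The highest library exceeded the lowest by 1.64-fold, the smallest such spread among the 9 tested members, and the log2 fold change became 0.05 without TIC replicate 2.

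Bmpr1a, the type I receptor, lies on chromosome 14 at 34410734 to 34503341. Controls had 28.0, 61.8 and 53.8 CPM and TICs 35.2, 38.4 and 17.4 CPM. TIC replicate 3 was the lowest library, and the remaining TIC libraries lay above control replicate 1. The means of 47.9 ± 17.7 and 30.3 ± 11.3 CPM differed by a log2 fold change of -0.66 ± 0.55 (edgeR exactTest, adjusted p = 0.98). Its exons share 290 bases with the antisense gene Gm17110, which had 84, 25 and 42 counts in controls and 15, 41 and 229 counts in TICs, highest in the library where Bmpr1a was lowest. Whether reads were counted by strand is not given in the sources used here, so reads of this stretch cannot be told apart.

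Grem1, a secreted antagonist that binds BMP2, BMP4 and BMP7, had 0 counts in all 6 libraries and was not tested. It lies on chromosome 2 at 113746164 to 113758646. A count of 0 allows a level of up to 0.33 to 0.44 CPM per library, counting error only, so Grem1 RNA was below detection at this depth in TICs and controls alike.

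Among the ID genes, the TIC mean was below the control mean for Id2 and Id4 and above it for Id1 and Id3, and none of the 4 passed the test over all genes. Id2, which mammary alveolar cells need to differentiate for lactation, lies on chromosome 12 at 25093799 to 25097140. It measured 482, 328 and 339 CPM in controls and 245, 246 and 227 CPM in TICs. The 3 TIC libraries were tightly grouped and all below the lowest control, and control replicate 1 stood above the other controls. The means of 383 ± 85.8 and 239 ± 10.7 CPM (SD, n = 3) gave a log2 fold change of -0.68 ± 0.29 (edgeR exactTest, adjusted p = 0.42), with an unadjusted exactTest p of 0.020. The exact permutation p was 0.1, the smallest possible, which only restates the separation of the groups and which Id4 also had. Without control replicate 1 the log2 fold change was -0.47, and the lowest adjusted p over 12 alternatives was 0.18, by DESeq2.

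Id1, whose product restrains differentiation in many cell types, lies on chromosome 2 at 152736251 to 152737410. Controls had 79, 309 and 84 counts, or 11.5, 35.1 and 12.02 CPM, and TICs had 249, 758 and 420 counts, or 27.4, 88.4 and 55.4 CPM. Control replicate 2 was about at the level of TIC replicate 1, and the other libraries separated. The means were 19.5 ± 13.4 and 57.1 ± 30.5 CPM, with a log2 fold change of 1.54 ± 0.62 (edgeR exactTest, adjusted p = 0.37) and an unadjusted exactTest p of 0.016. The log2 fold change ranged from 1.08 to 2.28 over the 12 alternatives, and the lowest adjusted p was 0.12, without TIC replicate 1.

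Id3, which overlaps Id1 in function in blood vessels, lies on chromosome 4 at 136143497 to 136145755. It had 13.6, 17.6 and 8.44 CPM in controls and 6.59, 20.2 and 62.9 CPM in TICs. TIC replicate 3 alone stood far above the rest, and TIC replicate 1 was the lowest library of all. The log2 fold change of 1.18 ± 0.84 (edgeR exactTest, adjusted p = 0.93) was 0.04 without TIC replicate 3.

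Id4, a regulator of mammary basal cells and ductal growth, lies on chromosome 13 at 48261228 to 48266026. Its level was 17.7, 13.5 and 9.15 CPM in controls and 8.57, 4.66 and 8.97 CPM in TICs. All TIC libraries lay below the controls, but control replicate 3 and TIC replicate 3 almost touched. The means of 13.4 ± 4.25 and 7.40 ± 2.38 CPM gave a log2 fold change of -0.86 ± 1.07 (edgeR exactTest, adjusted p = 1). Its exons share 82 bases with the antisense gene A330033J07Rik, which had 0 counts in all 6 libraries.

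**Figure D2:**
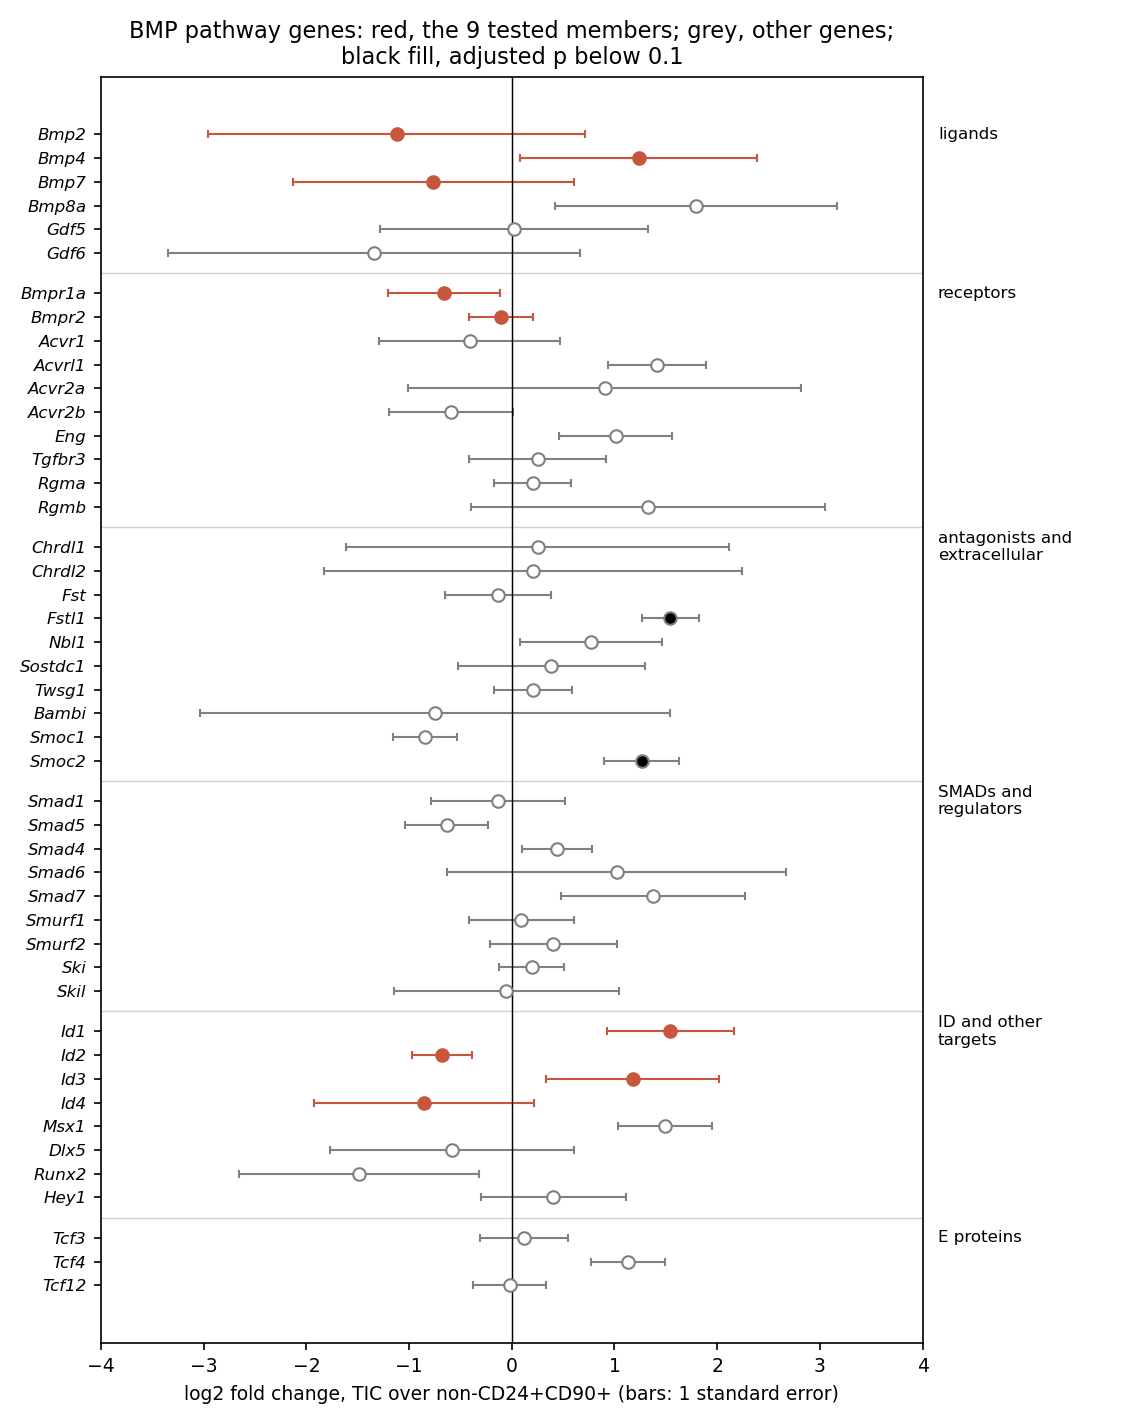
Log2 fold change of TICs over non-CD24+CD90+ tumor cells (horizontal axis) for the 9 tested members (red) and the other BMP pathway genes tested (grey). Bars are 1 SE from the negative binomial fit, and black fill marks an adjusted p below 0.1 (edgeR exactTest). The 95% intervals are wider than these bars and are not drawn. Those of Id1 (0.33 to 2.76) and Id2 (-1.25 to -0.11) lie on opposite sides of 0 before adjustment for all genes tested. The 95% intervals of the other 7 cross 0.

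Per kilobase of exon, the scale on which genes can be compared, Id2 had the highest level of the members in every library. Its mean was 157 CPM per kb in controls and 98.2 CPM per kb in TICs, against 16.8 and 49.2 for Id1, 7.37 and 16.7 for Id3, and 3.49 and 1.92 for Id4. Bmpr2 had 10.1 and 9.36 CPM per kb and Bmpr1a 7.54 and 4.77. The ligands had 3.82 and 2.24 CPM per kb for Bmp7, 2.58 and 6.10 for Bmp4, and 1.94 and 0.89 for Bmp2. In both groups the libraries of Id2 lay above those of every other member, and from Id1 downwards each member overlapped its neighbor in the order of means.

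The makeup of the ID family was therefore dominated by Id2 and varied with the level of Id1. Id2 made up 89.9%, 75.5% and 88.9% of the summed ID level per kb in controls and 77.3%, 53.3% and 52.2% in TICs. Id1 made up 4.52%, 17.0% and 6.61% in controls and 18.2%, 40.2% and 26.8% in TICs, so that all TIC libraries lay above all controls in this share, TIC replicate 1 by little. The ratio of Id2 to Id1 per kb was 19.9, 4.45 and 13.4 in controls and 4.26, 1.33 and 1.95 in TICs. Control replicate 2 and TIC replicate 1 were nearly alike in this ratio. Id3 reached 19.7% in TIC replicate 3 and 2.83% to 5.94% in the other TIC libraries. The summed ID level itself was 220, 178 and 157 CPM per kb in controls and 130, 190 and 178 in TICs, and the groups overlapped. The shares were examined after the values of the members were known, and no test was made of them.

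**Figure D3:**
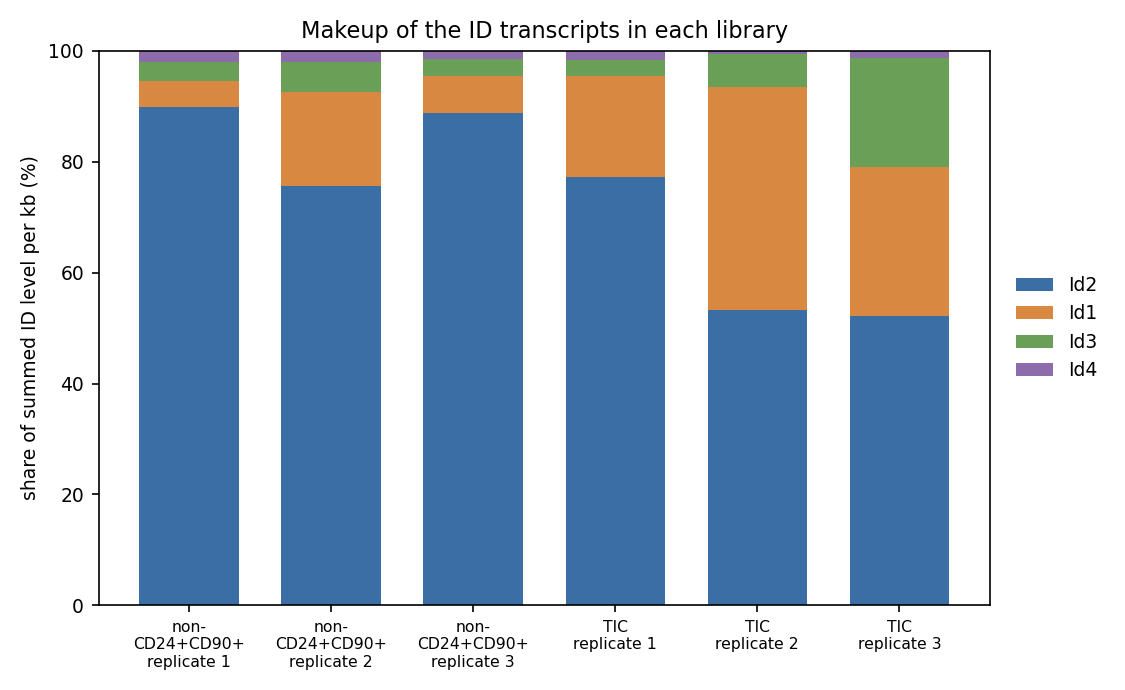
Share of the summed ID level per kb of exon (vertical axis, percent) held by Id1, Id2, Id3 and Id4 in each of the 6 libraries. Id2 holds 75.5% to 89.9% in controls and 52.2% to 77.3% in TICs, and Id1 holds 40.2% in TIC replicate 2.

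Levels of endothelial markers were set beside those of Id1 and Id3. The summed level of 9 endothelial markers, among them Pecam1, Cdh5 and Kdr, was 192, 221 and 195 CPM in controls and 246, 400 and 929 CPM in TICs. All 9 had a positive log2 fold change with a median of 1.21, 0 of 9 passed exactTest, the quasi-likelihood test or DESeq2, 6 of 9 had an unadjusted exactTest p under 0.05 (7.85% of all genes did), and none was at 0 in any library. The library highest in these markers, TIC replicate 3, was also the highest in Id3, while Id1 was highest in TIC replicate 2. Acvrl1, a BMP receptor of endothelial cells, ordered the TIC libraries as the markers did, with 60.2, 82.4 and 121 CPM against 52.1, 28.6 and 18.2 CPM in controls. The controls were not ordered alike, since control replicate 1 was the control lowest in the markers and highest in Acvrl1. Without TIC replicate 3 the log2 fold change of Id1 was 1.58, compared with 0.04 for Id3. The part of endothelial RNA in these values was not tested.

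**Figure D4:**
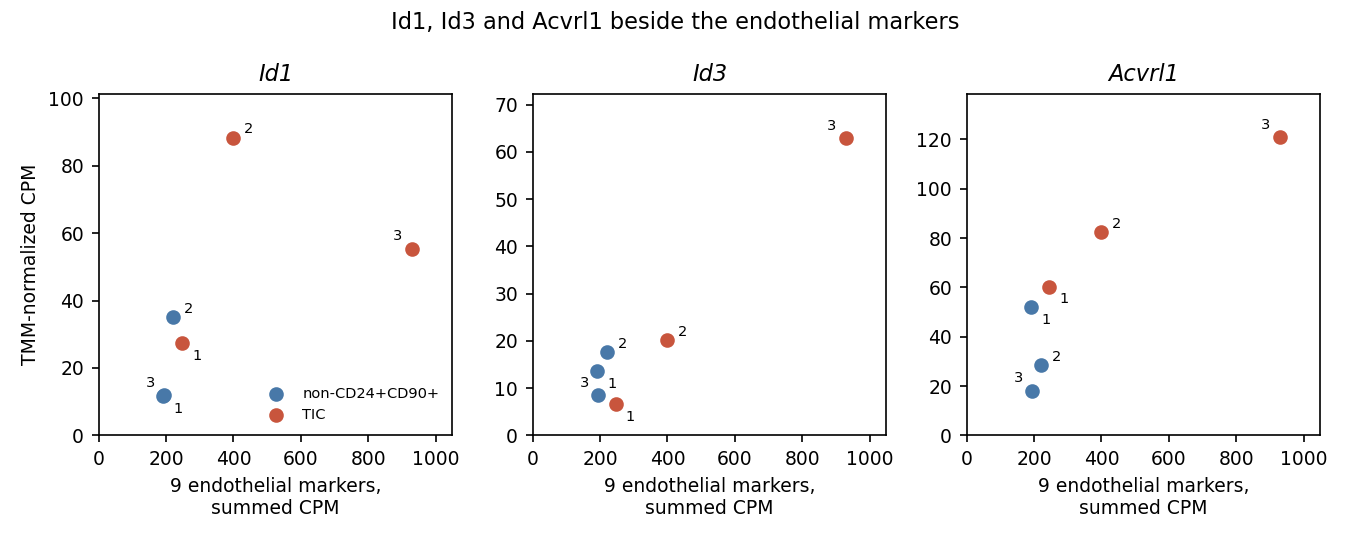
Level of Id1, Id3 and Acvrl1 (TMM-normalized CPM, vertical axes) against the summed CPM of 9 endothelial markers (horizontal axes) in each library of non-CD24+CD90+ tumor cells (blue) and TICs (red), with replicate numbers beside the points. TIC replicate 3, at 929 CPM of endothelial markers, has the highest Id3 and Acvrl1 but not the highest Id1.

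Over the 6 libraries, the genes whose log2 CPM was most like that of Id1 were Numb (Pearson r = 0.995), Ndufaf4 (0.990), Ift140 (0.986), Pcdh20 (0.985) and Tbx15 (0.982). Of 12191 other genes, 33 had an r of at least 0.95 and 127 an r of at least 0.9. None of these 5 genes passed the test between the groups, and with 6 points that share group and depth these values only describe the libraries.

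Of 57 other BMP pathway genes, listed by role, 37 were tested, 2 were called higher in TICs by exactTest (5.41%, against 1.36% of all genes) and 0 were called lower. Of the 37, 6 had an unadjusted p under 0.05 (16.2%, against 7.85% of all genes). All TIC libraries lay above the controls for 5 of them and below for 3 (13.5% and 8.11%, against 7.69% and 7.55% of all genes). A positive log2 fold change was found in 25 of the 37 (67.6%), with a median of 0.21. Among other ligands 3 of 11 were tested and 0 passed by any of the 3 tools or at an unadjusted p of 0.05, and Bmp5, Bmp8b, Bmp10, Bmp15, Gdf2 and Gdf7 had no count in any library. Bmp8a measured 11.2, 5.22 and 2.15 CPM in controls and 11.1, 53.6 and 0 CPM in TICs. Gdf5 averaged 11.0 CPM in controls and 11.1 CPM in TICs, and Gdf6 6.96 and 2.73 CPM. Bmp6 had 100 counts in TIC replicate 3 and 0 in the other libraries, the same library-to-library unevenness as in Bmp2 and Bmp7.

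Of the other receptors and co-receptors, 8 of 9 were tested and 0 passed by any of the 3 tools, with 1 at an unadjusted p under 0.05. All TIC libraries lay above the controls for Acvrl1 (log2 fold change 1.41 ± 0.48, edgeR exactTest, adjusted p = 0.18), and the co-receptor of endothelial cells Eng averaged 27.4 ± 9.89 CPM in controls and 55.2 ± 30.9 CPM in TICs. Rgma, a BMP co-receptor, averaged 83.4 and 96.0 CPM. The type II receptor Acvr2b had 32.0, 34.7 and 31.6 CPM in controls and 20.2, 17.3 and 27.7 CPM in TICs, all below the controls (log2 fold change -0.59 ± 0.61, adjusted p = 1).

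The 2 genes that passed belong to the extracellular regulators, of which 10 of 16 were tested. Fstl1, a secreted glycoprotein that can bind BMP4, was at 656, 512 and 438 CPM in controls and at 1425, 1729 and 1525 CPM in TICs. Every TIC library exceeded every control more than the controls differed among themselves, with a log2 fold change of 1.54 ± 0.28 (edgeR exactTest, adjusted p = 9.4e-05), and the call held in all 12 alternatives. Smoc2, a secreted matrix protein, rose from 54.4, 64.7 and 64.8 CPM to 141, 91.9 and 209 CPM (log2 fold change 1.26 ± 0.37, adjusted p = 0.065). Its call was lost by the quasi-likelihood test (adjusted p = 0.21), by library size alone, without a filter, and without any 1 control or TIC replicate 3. Its relative Smoc1, a BMP antagonist, had 223, 325 and 281 CPM in controls and 197, 127 and 136 CPM in TICs, all below the controls (adjusted p = 0.25). Twsg1, which binds BMPs and chordin, averaged 103 and 119 CPM. Both genes that passed are also expressed by fibroblasts. Of 8 fibroblast markers, 5 were called higher in TICs (Col1a1, Col1a2, Col3a1, Dcn and Dpt), against 1.36% of all genes. The part of fibroblast RNA was not tested.

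Among SMADs and intracellular regulators 9 of 10 were tested and 0 passed by any of the 3 tools or at an unadjusted p of 0.05. Smad5 was at 260, 218 and 205 CPM in controls and at 57.2, 190 and 193 CPM in TICs, so that all TIC libraries lay below the controls and TIC replicate 1 far below (log2 fold change -0.63 ± 0.40, edgeR exactTest, adjusted p = 0.87). Smad4 averaged 74.6 ± 2.67 and 101 ± 5.92 CPM without overlap of the groups (adjusted p = 0.95). The repressor Ski averaged 138 and 158 CPM and the ubiquitin ligase Smurf1 61.6 and 65.7 CPM.

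Of 8 other BMP-responsive genes 4 were tested, 0 passed exactTest in the main comparison or the quasi-likelihood test, and 1 had an unadjusted p under 0.05. Msx1, a homeobox gene induced by BMPs, was closest, with 40.0, 27.9 and 45.1 CPM in controls and 66.1, 70.5 and 181 CPM in TICs. Its log2 fold change was 1.49 ± 0.46 (edgeR exactTest, adjusted p = 0.102), and DESeq2 called it (adjusted p = 0.077). It also passed exactTest with RLE factors (adjusted p = 0.088) and with a filter of at least 10 counts in at least 3 libraries (0.099). Without TIC replicate 1 (0.029) or TIC replicate 2 (0.076) exactTest called it too, and the remaining alternatives did not. Hey1 averaged 25.9 and 34.3 CPM, Runx2 17.1 and 6.08 CPM, and Dlx5 9.93 and 6.64 CPM. Of the 3 E proteins, Tcf4 had 442, 352 and 402 CPM in controls and 412, 1044 and 1168 CPM in TICs. TIC replicate 1 lay within the controls and the other TIC libraries far above them (log2 fold change 1.13 ± 0.36, exactTest, adjusted p = 0.12), and DESeq2 called Tcf4 (adjusted p = 0.012). Tcf12 averaged 94.1 and 92.7 CPM and Tcf3 57.0 and 61.9 CPM.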

How the data were processed

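RNA-seq libraries were 3 per group. The authors trimmed reads with Trimmomatic (version 0.32), aligned them to GRCm38 with STAR (version 2.4.0), removed reads without a unique alignment with SAMtools (version 1.1) and counted them per gene with HTSeq. The values they deposited are these raw counts. The annotation release and the strand setting are not given in the sources used here.

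Genes above 1 CPM in 3 or more libraries (12192) were normalized by TMM and compared with exactTest in edgeR (version 4.0.16, R version 4.3.3) with common and tagwise dispersions, the test of the study, at a Benjamini-Hochberg adjusted p of 0.1. The CPM value of the filter was chosen here. Standard errors came from the negative binomial fit. Code was tested on simulated counts with dispersions set below those of the data, which checks the code only. Symbols, positions and exon lengths were from GENCODE M21 on GRCm38. The members and lists were chosen with earlier results of these data known. Other pathway genes were named if they passed the test or, up to 4 per role, by the highest mean CPM. Alternatives were the quasi-likelihood test, DESeq2 (version 1.42.0), RLE factors, library size alone, other filters, a threshold of 0.05, and each replicate left out. Lists of basal, pericyte, leukocyte, erythroid and immediate early genes were also summed. The p-values measure the spread between pools, not between single mice.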

Additional observations from a re-analysis of the deposited data

How the results depend on the processing

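No member was called under any alternative run, with 9 tested in each except DESeq2, which gave Bmp2 no adjusted p, and the sign of the log2 fold change held throughout except for Bmpr2, which became 0.0483 without TIC replicate 2 (range -0.2923 to 0.0483 when leaving out 1 replicate). Grem1 had no counts and no value under any alternative. The number of genes called was 189 with exactTest, 50 by the quasi-likelihood test, 306 by DESeq2, 112 without a filter beyond 1 count, 116 at an adjusted p of 0.05, and 68 to 314 when leaving out 1 replicate. Of the other pathway genes, 2 were called in the main comparison, 1 by the quasi-likelihood test and 4 by DESeq2. With RLE factors 3 were called, with a filter of at least 10 counts in at least 3 samples 3, by library size alone 1 and without the filter 1. Leaving out 1 replicate gave 1 to 6 (6 without TIC replicate 1). The cause was not tested. No paired analysis was possible because the replicate numbers follow only the sample order. Whether TIC and control pools came from the same mice is not clear from the sources used here, and the tests treated the pools as unpaired. The biological coefficient of variation common to all genes tested was 0.82. At 3 libraries per group, differences of the low ligands were not resolved. The SEs of their log2 fold changes were 1.84 for Bmp2, 1.15 for Bmp4 and 1.37 for Bmp7.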

Other observations

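Marker lists that no comparison above uses gave the following summed levels. Of 8 pericyte and smooth muscle genes, 7 had a positive log2 fold change (49.7% of all genes tested did). By exactTest 1 was called higher in TICs, against 1.36% of all genes. The 8 genes summed to 533 to 643 CPM in controls and 931 to 1373 CPM in TICs, without overlap. For 6 basal and myoepithelial genes, 569 to 1200 CPM in controls and 590 to 702 CPM in TICs overlapped. The 6 leukocyte genes summed to 27.0, 35.6 and 16.7 CPM in controls and 83.2, 80.7 and 32.1 CPM in TICs, and the groups overlapped. Of these, Lyz2 alone was at 62.0, 75.3 and 28.0 CPM in TICs. Lyz2 was called higher in TICs (log2 fold change 2.68, edgeR exactTest, adjusted p = 0.012). The other leukocyte genes tested had negative log2 fold changes, -0.31 for Cd68 and -1.68 for Csf1r (adjusted p = 1 for both), the median of the 3 tested was -0.31, Ptprc and Cd79a had counts in control replicate 1 only, and Cd3e had none. Erythroid genes (26.7 to 100.2 CPM in controls, 15.4 to 166 CPM in TICs) and 8 immediate early genes (3699 to 5591 CPM in controls, 2966 to 4767 CPM in TICs) overlapped. None of the erythroid and immediate early genes passed exactTest, and 1 of each list had an unadjusted p under 0.05 (7.85% of all genes did). DESeq2 called 1 immediate early gene, and 2.58% of all genes to which it gave an adjusted p.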
